A study of Homo sapiens with 9 samples.

Results

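The proteasome is the large protease that unfolds and degrades proteins tagged with ubiquitin. Its 20S core is a barrel of alpha (PSMA) and beta (PSMB) rings with the proteolytic sites inside. Its 19S cap holds a base of AAA ATPases (PSMC) with scaffold and receptor subunits, and a lid that removes ubiquitin from the substrate. PSMD symbols cover subunits of the base and of the lid, and chaperones of the base. Subunit genes tend to be transcribed together in mammalian cells, and the membrane-tethered factor NFE2L1 raises them when proteasome activity falls.

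The genes described here were those whose symbol matched PSMA, PSMB, PSMC or PSMD followed by a number, read from probe sets that the platform annotation pairs with 1 symbol, with PSMB2, PSMB8, PSMB9 and PSMB10 left out. Each gene was read from its brightest probe set over all 9 arrays. This gave 29 genes of the 11963 with such a probe set, measured by 45 probe sets in all, and 12 of the genes had more than 1. The rule used no difference between groups. A mean over all arrays can still favour a probe set that is high in 1 group, as for PSMD5 below. By role the set held 6 alpha ring, 6 beta ring and 5 ATPase genes, 3 genes of the base scaffold and its ubiquitin receptor, 6 lid genes and 3 genes of chaperones that assemble the base. PSMA6 was read only by probe sets of several symbols, and PSMA8, PSMB11, PSMC5, PSMD7 and PSMD13 were not analysed here.

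RNA came from IMR32, a human neuroblastoma line, and was measured on 9 oligonucleotide arrays, 3 each for cells stably expressing 69-kDa choline acetyltransferase (69CHAT), cells stably expressing the 82-kDa form (82CHAT) and cells labelled wild type (WT). Choline acetyltransferase makes acetylcholine. The design text calls the 3 arrays of a condition biological replicates. The sources used here do not give the promoter of the transgenes or say whether a line is 1 clone. With 1 line per form of the enzyme, effects of the form and of the line cannot be told apart. The labels name no agent or time. The CHAT probe set, of which the sources used here do not say whether it reads the transgenes, read 256, 175 and 177 in 69CHAT, 1066, 423 and 1067 in 82CHAT and 148, 125 and 114 in WT. It was 6.11-fold higher in 82CHAT (adjusted p = 0.00057) and 1.56-fold higher in 69CHAT, which did not pass (adjusted p = 0.23) although the groups did not overlap. The name 69CHAT is therefore used here as the label gives it.

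The arrays labelled WT stood apart from both lines and went against their label. MYCN, amplified in IMR32, read 4181 to 5947 on the 69CHAT arrays, 4301 to 6118 on the 82CHAT arrays and 62.5 to 120 on the WT arrays. Of 12 measured neuroblastoma markers 8 passed the test as higher in each line and 0 as lower, and their summed intensity was 10882 to 17853 in 69CHAT, 13640 to 20338 in 82CHAT and 1812 to 2041 in WT. Of 8 epithelial markers 7 were lower in each line, with sums of 364 to 402 in 69CHAT, 367 to 412 in 82CHAT and 6271 to 7135 in WT, and of 8 mesenchymal markers 4 were lower in 69CHAT and 5 in 82CHAT, with sums of 4974 to 8264, 4955 to 7249 and 14338 to 15707 in the same order of groups. No marker was listed at 0. Every difference from WT below is therefore a difference from arrays of doubtful identity, and the part of cell identity in it was not tested. In RNA from many cells, a change in the share of a cell type and a change of RNA per cell cannot be told apart.

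Proteasome subunit RNA was lower in both ChAT lines than on the WT arrays for a large share of the genes. With all arrays, in 69CHAT 12 of 29 genes fell (41.4%) and 0 rose, where 15.3% of all 22215 probe sets fell and 10.9% rose. In 82CHAT, 11 of 29 fell (37.9%) and 0 rose, where 15.7% of all probe sets fell and 11% rose. Among the 11107 probe sets above the median level, where 28 of the 29 genes lay (PSMD5 was the exception), 20.4% fell in 69CHAT and 21.0% in 82CHAT. Here and below a gene fell or rose where limma's two-sided test over all 9 arrays gave a Benjamini-Hochberg adjusted p under 0.05 over all probe sets. The 11 genes that fell in 82CHAT all fell in 69CHAT too: PSMA3, PSMB3, PSMB6, PSMB7, PSMC4, PSMD3, PSMD5, PSMD6, PSMD8, PSMD10 and PSMD11. PSMD1 was the other gene that fell in 69CHAT. These counts rest on the brightest probe set of each gene. Of the 16 dimmer probe sets 0 passed as lower in either line, and 1, of PSMD9, passed as higher in 82CHAT. The sign of the brightest was shared by 11 of the 16 in 69CHAT and 12 in 82CHAT. Of the genes that fell, only PSMD1, PSMD5 and PSMD11 had a dimmer probe set. Without WT replicate 3 the falls numbered 6 in each line, and without WT replicate 2 they numbered 7 in 82CHAT. Both comparisons use the same 3 WT arrays.

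The median log2 difference from WT over the 29 genes was -0.44 in 69CHAT, about 1.35-fold lower, and -0.33 in 82CHAT, about 1.26-fold lower, while the median over all probe sets was 0.06 in each. The difference was below 0 for 28 of 29 genes in 69CHAT and for 25 of 29 in 82CHAT. With no overlap between the groups, 15 genes lay below WT in 69CHAT and 14 did in 82CHAT (51.7% and 48.3%, against 21.2% and 21.3% of all probe sets), and 0 lay above in either line, where 22.5% and 20.9% of all probe sets did. The 14 of 82CHAT were among the 15 of 69CHAT.

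**Figure D1:**
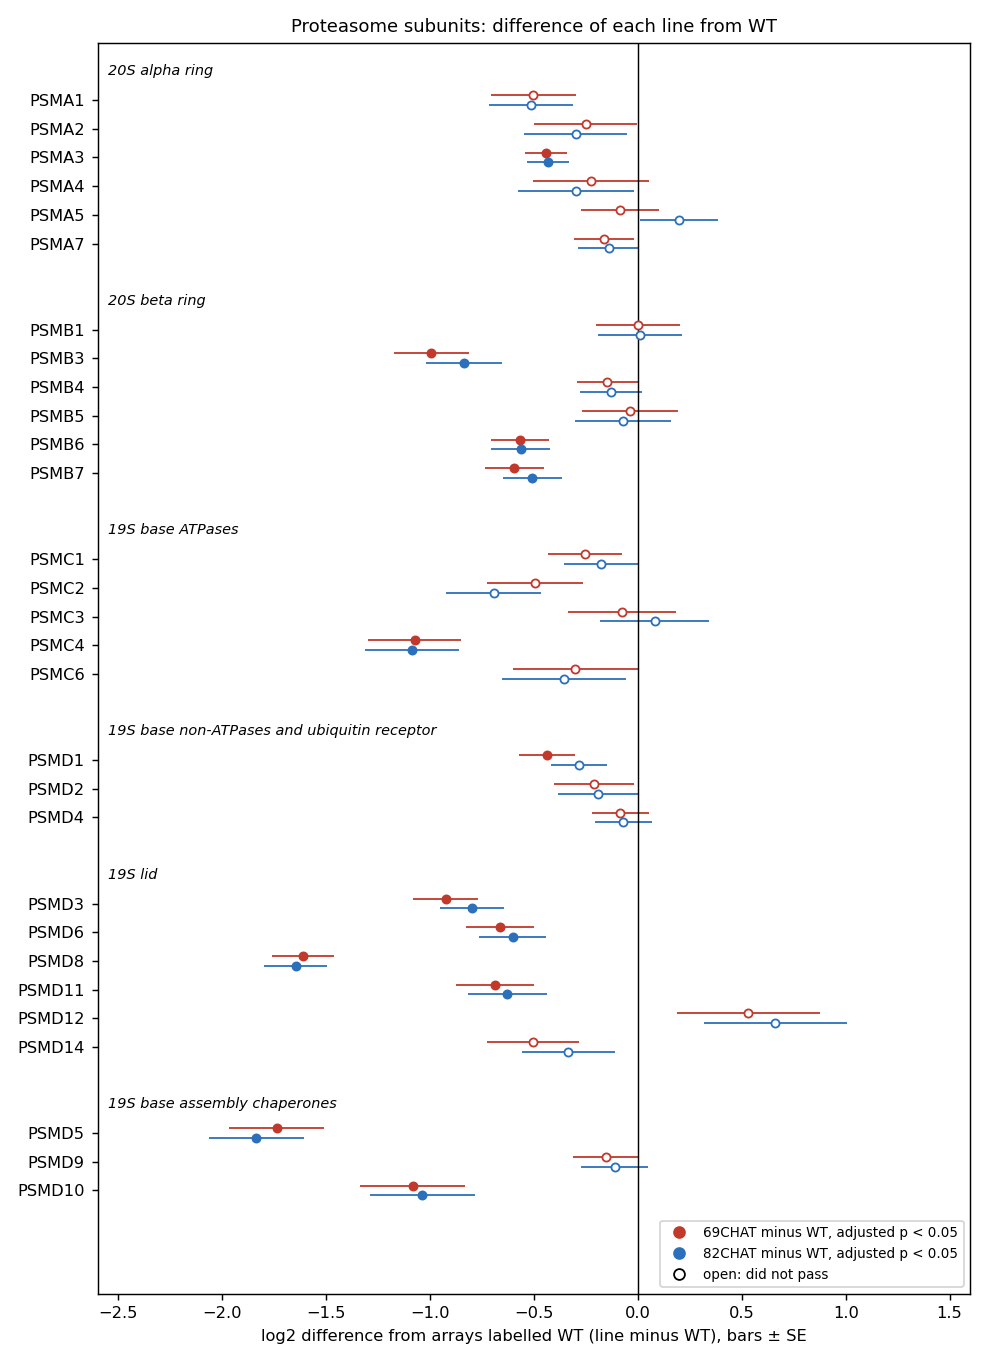
Log2 difference of the 69CHAT (red) and 82CHAT (blue) lines from the arrays labelled WT for the 29 proteasome subunit genes, grouped by role (x axis, line minus WT, points with bars of ± SE, n = 3 arrays a group). Filled points passed an adjusted p of 0.05 and open points did not. All filled points lie left of 0, with PSMD5 and PSMD8 farthest, and PSMD12 lies right of 0 with open points.

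For each gene with a RefSeq promoter, the 250 bases before the start were read for 2 motifs on both strands. One was TGANNNNGC, a loose form of the core of the antioxidant response element, and the other was CCAAT. NFE2L1 and NFE2L2 bind that element with small MAF proteins. They are shown for PSMD8, PSMD3, PSMC4 and PSMB3, 4 of the 11 genes that fell in both lines with all arrays apart. These 4 held TGANNNNGC, while PSMD6, PSMD10 and PSMD11, which also fell in both lines with all arrays apart, did not. PSMD12, which had positive differences in both lines, is shown too. Capitals mark either motif on either strand, and the letters run 5′ to 3′ on the gene's strand in GRCh38.p14. PSMD8 is at chr19:38374321-38374570, PSMD3 at chr17:39980557-39980806, PSMC4 at chr19:39970915-39971164 and PSMB3 at chr17:38752491-38752740, all on the + strand, and PSMD12 is at chr17:67366578-67366827 on the - strand.
PSMD8: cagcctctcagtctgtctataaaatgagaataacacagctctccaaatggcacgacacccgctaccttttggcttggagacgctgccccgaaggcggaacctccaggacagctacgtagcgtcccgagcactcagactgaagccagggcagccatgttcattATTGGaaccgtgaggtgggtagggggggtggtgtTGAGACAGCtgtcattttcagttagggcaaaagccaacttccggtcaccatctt
PSMD3: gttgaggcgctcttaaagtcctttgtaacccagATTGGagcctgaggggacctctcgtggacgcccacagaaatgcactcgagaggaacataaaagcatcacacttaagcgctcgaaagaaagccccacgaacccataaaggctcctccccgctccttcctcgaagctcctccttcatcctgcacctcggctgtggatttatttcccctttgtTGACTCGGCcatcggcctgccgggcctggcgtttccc
PSMC4: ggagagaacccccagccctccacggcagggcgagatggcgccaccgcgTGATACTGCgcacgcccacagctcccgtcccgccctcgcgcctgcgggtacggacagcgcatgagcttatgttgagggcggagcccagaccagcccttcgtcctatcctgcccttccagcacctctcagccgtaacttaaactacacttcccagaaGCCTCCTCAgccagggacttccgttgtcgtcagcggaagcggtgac
PSMB3: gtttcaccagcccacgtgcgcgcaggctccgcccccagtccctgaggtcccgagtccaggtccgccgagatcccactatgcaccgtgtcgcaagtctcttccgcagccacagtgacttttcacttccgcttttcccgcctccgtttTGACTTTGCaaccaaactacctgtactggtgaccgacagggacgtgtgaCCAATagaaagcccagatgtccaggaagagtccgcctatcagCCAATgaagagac
PSMD12: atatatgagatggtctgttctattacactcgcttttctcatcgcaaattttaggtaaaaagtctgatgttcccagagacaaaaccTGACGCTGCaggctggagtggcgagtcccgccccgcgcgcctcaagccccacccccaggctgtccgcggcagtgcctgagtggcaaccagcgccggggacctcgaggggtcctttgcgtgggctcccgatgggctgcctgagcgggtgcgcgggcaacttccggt
In these 5 the TGANNNNGC matches begin 54 bases before the start in PSMD8, 37 in PSMD3, 202 and 46 in PSMC4, 104 in PSMB3 and 165 in PSMD12. RefSeq promoters were given for 24 of the 29 genes, 28 windows in all. PSMA7, PSMB1, PSMB6, PSMB7 and PSMD4 had none, so PSMB6 and PSMB7, which fell in both lines, were not read. TGANNNNGC was in 15 of the 28 windows (53.6%), against 35.2% of the 35093 windows of all genes, and CCAAT in 13 (46.4%), against 32% of all. The windows of all genes came from 27305 genes and were not matched to the subunit genes in base composition. These shares were not tested. Of the 9 windows of genes that fell in both lines, 6 held TGANNNNGC and 6 held CCAAT, and of the other 19 windows 9 and 7 did. The motifs overlapped once each in PSMA3 and PSMA5. A match is only a run of letters and does not show binding.

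In the 19S lid 4 of 6 genes fell in each line, where 15.3% of all probe sets fell in 69CHAT and 15.7% in 82CHAT. Of the probe sets above the median level 20.4% and 21.0% fell. PSMD8 fell by the most of the lid genes. PSMD8, a lid subunit known in yeast to be needed for the lid to join the base, read 839, 968 and 1055 in 69CHAT, 775, 909 and 1125 in 82CHAT and 2675, 2826 and 3225 in WT. All 6 line arrays lay well below all WT arrays, and the lines overlapped each other. PSMD8 was 3.05-fold lower in 69CHAT (log2 difference -1.61, SE 0.15, adjusted p = 7.9e-05) and 3.13-fold lower in 82CHAT (-1.65, SE 0.15, adjusted p = 7e-05). PSMD3, a scaffold subunit of the lid, read 636, 678 and 765 in 69CHAT, 622, 797 and 867 in 82CHAT and 1143, 1269 and 1561 in WT. It was 1.90-fold lower in 69CHAT (adjusted p = 0.0023) and 1.74-fold lower in 82CHAT (adjusted p = 0.0051), again with no overlap.

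PSMD6 and PSMD11, further scaffold subunits of the lid, fell less. PSMD6 read 1461, 1724 and 1917 in 69CHAT, 1375, 1960 and 2027 in 82CHAT and 2608, 2538 and 2895 in WT, 1.58-fold lower in 69CHAT (adjusted p = 0.015) and 1.52-fold lower in 82CHAT (adjusted p = 0.024). PSMD11 read 1278, 1346 and 1559 in 69CHAT, 1038, 1641 and 1787 in 82CHAT and 2280, 2137 and 2306 in WT. Its brightest probe set was 1.61-fold lower in 69CHAT (adjusted p = 0.026) and 1.55-fold lower in 82CHAT (adjusted p = 0.037). A dimmer PSMD11 probe set did not follow, with log2 differences of -0.17 (SE 0.25) in 69CHAT and 0.11 (SE 0.25) in 82CHAT, so the fall of this gene rests on 1 of its 2 probe sets. PSMD11 passed in neither line with any 1 WT array or with 69CHAT replicate 2 removed, nor in 69CHAT without 69CHAT replicate 1, nor in 82CHAT without 82CHAT replicate 2 (highest adjusted p 0.10). In 82CHAT it did not pass under median centring either. PSMD6 did not pass without WT replicate 3 in either line, nor without WT replicate 1 or 2 in 82CHAT (highest adjusted p 0.084).

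PSMD14, the lid enzyme that cuts ubiquitin from substrates, read 1100, 1782 and 1932 in 69CHAT, 1433, 1950 and 1932 in 82CHAT and 1932, 2216 and 2530 in WT. Its log2 differences of -0.51 (SE 0.22, adjusted p = 0.14) and -0.33 (SE 0.22, adjusted p = 0.31) did not pass, although with the replicate number as a block both did (adjusted p = 0.0094 and 0.045). PSMD12, another scaffold subunit of the lid, went the other way. It read 802, 1574 and 1801 in 69CHAT, 977, 1692 and 1798 in 82CHAT and 696, 1028 and 1052 in WT. The replicate 1 array was lowest in each group, and within each replicate number both lines exceeded WT. The log2 difference was 0.53 in 69CHAT (SE 0.34, adjusted p = 0.32; 0.0079 with the replicate block) and 0.66 in 82CHAT (SE 0.34, adjusted p = 0.21; 0.003 with the block). Its dimmer probe set, nearly as bright, differed by only 0.02 (SE 0.23) and -0.04 (SE 0.23), so the direction of PSMD12 is not settled.

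**Figure D2:**
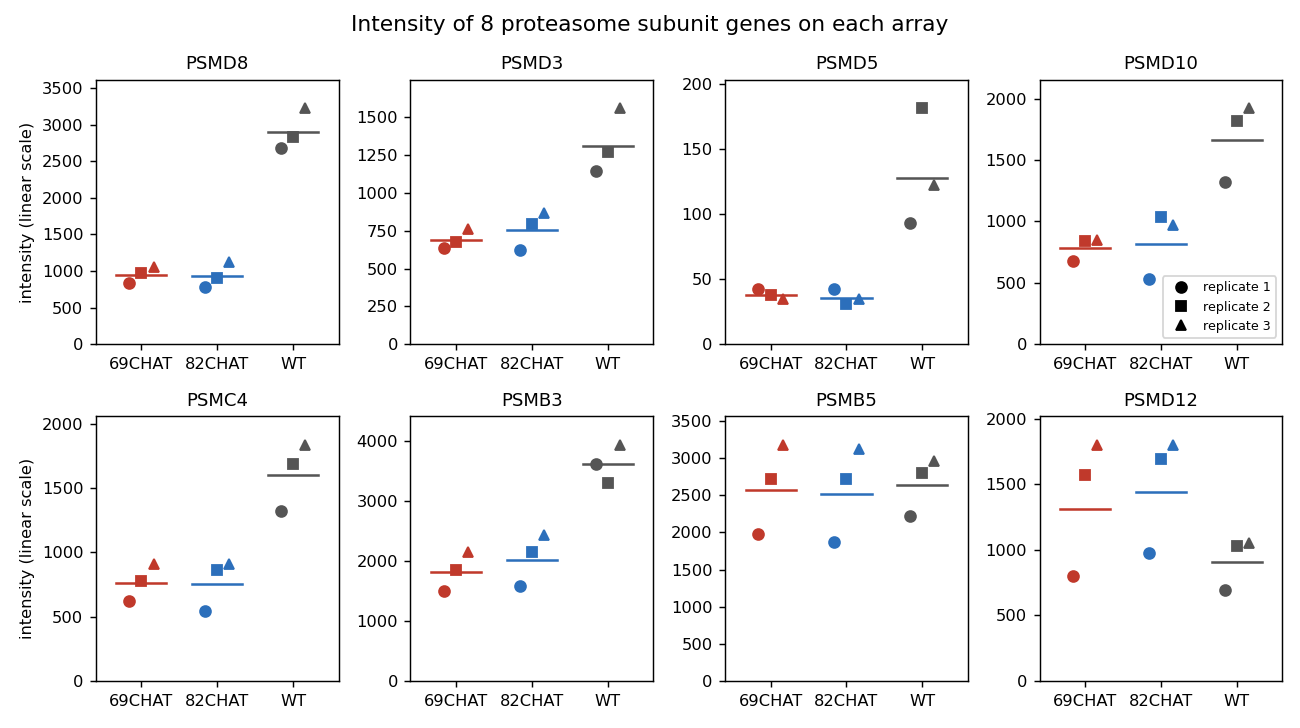
Intensity on a linear scale (y axis, from 0) of 8 proteasome subunit genes on each array of 69CHAT, 82CHAT and WT. Symbols give the replicate number and the line is the group mean of log2 values on the linear scale. PSMD8, PSMD3, PSMD5, PSMD10, PSMC4 and PSMB3 are lower on all line arrays than on all WT arrays, PSMB5 overlaps in all groups, and PSMD12 is higher on replicates 2 and 3 of the lines.

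The largest fold of all the subunit genes was that of PSMD5, a chaperone that assembles the base. PSMD5, which holds ATPase subunits before the cap is complete, read 42.3, 37.8 and 34.7 in 69CHAT, 42.3, 31.1 and 34.5 in 82CHAT and 92.8, 181 and 122 in WT. It was about 3.34-fold lower in 69CHAT (adjusted p = 0.00056) and 3.57-fold lower in 82CHAT (adjusted p = 0.00041). All line values lay below the lower quartile of every array (55.9 or more), near background, so the folds are approximate. Its dimmer probe set stayed at 38.5 to 48.8 on all 9 arrays, near background throughout, so it could not show a difference of this kind. The line values of the brighter set, 31.1 to 42.3, lay within or below that range. The brighter set was therefore picked through its WT values. PSMD10, also called gankyrin, which binds the ATPase PSMC4 and is known as an oncoprotein of liver tumours, read 680, 838 and 853 in 69CHAT, 535, 1033 and 971 in 82CHAT and 1324, 1820 and 1924 in WT. It was 2.12-fold lower in 69CHAT (adjusted p = 0.013) and 2.05-fold lower in 82CHAT (adjusted p = 0.016), with no overlap. Neither fall passed without WT replicate 3, nor that in 82CHAT without WT replicate 2 (highest adjusted p 0.061). PSMD9, the remaining chaperone of the base, differed by -0.15 (SE 0.16) and -0.11 (SE 0.16) and passed in neither line. A dimmer PSMD9 probe set, at 190 to 206 in 69CHAT, 202 to 282 in 82CHAT and 133.6 to 190 in WT, was the only one of the 16 dimmer probe sets to pass, and it rose in 82CHAT (1.46-fold, adjusted p = 0.029).

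Among the ATPases that unfold the substrate, 1 of 5 genes fell in each line, a share close to the 20.4% and 21.0% of all probe sets above the median level. PSMC4 read 625, 773 and 909 in 69CHAT, 544, 863 and 909 in 82CHAT and 1324, 1684 and 1837 in WT. It was 2.10-fold lower in 69CHAT (log2 difference -1.07, SE 0.22, adjusted p = 0.0071) and 2.13-fold lower in 82CHAT (-1.09, SE 0.22, adjusted p = 0.0068). PSMC2 read 1968, 1981 and 2300 in 69CHAT, 1206, 2111 and 2334 in 82CHAT and 2525, 3067 and 3251 in WT, apart from WT on all arrays, but missed the threshold (-0.50, adjusted p = 0.16, and -0.69, adjusted p = 0.055; 0.042 and 0.011 with the replicate block). PSMC1, PSMC3 and PSMC6 ranged from -0.36 to 0.08 over both lines and passed in neither.

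Of the base scaffold, PSMD1 read 1335, 1663 and 1848 in 69CHAT, 1537, 1896 and 1933 in 82CHAT and 2189, 2102 and 2217 in WT. It was 1.35-fold lower in 69CHAT (adjusted p = 0.042) and 1.22-fold lower in 82CHAT (adjusted p = 0.16). The fall in 69CHAT was the least secure of the calls. It did not pass without replicate 1 or 2 of 69CHAT, replicate 2 or 3 of 82CHAT, or any 1 WT array (highest adjusted p 0.12). Nor did it pass under median centring, with the mean of all probe sets per gene, or under eBayes with a robust prior and an intensity trend. The difference between the lines was 0.15 (SE 0.13), so PSMD1 is not shown to differ between them. PSMD2, the other large scaffold, and the ubiquitin receptor PSMD4 differed from WT by -0.21 to -0.07, and their groups overlapped.

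In the beta ring, which carries the proteolytic sites, 3 of 6 genes fell in each line, where 15.3% of all probe sets fell in 69CHAT and 15.7% in 82CHAT. Among probe sets above the median level the shares were 20.4% and 21.0%. PSMB3, a structural subunit without its own active site, read 1504, 1842 and 2148 in 69CHAT, 1573, 2147 and 2437 in 82CHAT and 3620, 3301 and 3934 in WT. It was 1.99-fold lower in 69CHAT (adjusted p = 0.0036) and 1.79-fold lower in 82CHAT (adjusted p = 0.0087). PSMB6, which carries the caspase-like site, read 1719, 1803 and 2063 in 69CHAT, 1504, 2009 and 2137 in 82CHAT and 2855, 2535 and 2885 in WT, 1.48-fold lower in each line (adjusted p = 0.016 and 0.017). PSMB7, which carries the trypsin-like site, read 1876, 2377 and 2582 in 69CHAT, 2130, 2418 and 2685 in 82CHAT and 3109, 3391 and 3769 in WT, 1.51-fold lower in 69CHAT (adjusted p = 0.014) and 1.42-fold lower in 82CHAT (adjusted p = 0.028). None of these 3 overlapped with WT. The fall of PSMB7 in 82CHAT did not pass under median centring (adjusted p = 0.057), nor without replicate 1 or 2 of 82CHAT or replicate 2 or 3 of WT (highest adjusted p 0.099). The fall of PSMB6 did not pass without WT replicate 1 or 3 in either line, nor in 69CHAT without 69CHAT replicate 2 (highest adjusted p 0.06).

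PSMB5, which carries the chymotrypsin-like site and is the main target of bortezomib, did not pass. It read 1974, 2726 and 3182 in 69CHAT, 1869, 2726 and 3120 in 82CHAT and 2227, 2805 and 2959 in WT, with log2 differences of -0.04 (SE 0.23, adjusted p = 0.92) and -0.07 (SE 0.23, adjusted p = 0.84). PSMB1 (0.00 and 0.01, SE 0.20) and PSMB4 (-0.15 and -0.13, SE 0.15) likewise passed in neither line.

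In the alpha ring, which gates entry to the core, 1 of 6 genes fell in each line. Of all probe sets 15.3% and 15.7% fell, and of those above the median level 20.4% and 21.0%. The gene was PSMA3, which fell by a small and even amount. It read 1610, 1815 and 1879 in 69CHAT, 1572, 1865 and 1914 in 82CHAT and 2289, 2433 and 2470 in WT, 1.36-fold lower in 69CHAT (adjusted p = 0.011) and 1.35-fold lower in 82CHAT (adjusted p = 0.013). PSMA1 was lower by a like amount, but its arrays spread more. It read 2012, 2890 and 3059 in 69CHAT, 1986, 2831 and 3094 in 82CHAT and 3432, 3555 and 4152 in WT (-0.50, adjusted p = 0.11, and -0.51, adjusted p = 0.10). With the replicate block PSMA1 passed in both (adjusted p = 0.0085 and 0.0077), and its other 2 probe sets gave -0.58 to -0.45. PSMA2, PSMA4, PSMA5 and PSMA7 ranged from -0.30 to 0.20 and passed in neither line.

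The 82CHAT and 69CHAT lines were not shown to differ for any subunit gene. Of the 29 genes 0 passed the limma test between the lines, 0 had an unadjusted p under 0.05, and 0 of all 22215 probe sets passed (0.00% in each direction, with 733 at an unadjusted p under 0.05). The groups overlapped for all 29 genes, while 3.18% of all probe sets were higher and 3.66% lower on every 82CHAT array. In replicates 2 and 3 alone 0 genes passed, where 0.981% of all probe sets were higher and 1.06% lower. The log2 differences of 82CHAT from 69CHAT ranged from -0.20 in PSMC2 (SE 0.23) to 0.28 in PSMA5 (SE 0.19), with a median of 0.02. PSMA5 read 1151, 1757 and 2003 in 82CHAT and 1261, 1310 and 1357 in 69CHAT, so replicate 1 was lower and replicates 2 and 3 higher in 82CHAT. The SE of this difference was 0.10 to 0.34 over the genes, so small differences were not detectable with 3 arrays a line.

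The subunit genes varied with the replicate number. Replicate 1 was the lowest of its group for 26 of 29 genes in 69CHAT, 28 in 82CHAT and 18 in WT, where it was lowest for 37.3%, 37.7% and 32.4% of all probe sets and for 53.7%, 57.6% and 42.6% of those above the median level. The genes' median log2 difference of replicate 1 from the mean of replicates 2 and 3 was -0.32 in 69CHAT, -0.56 in 82CHAT and -0.12 in WT. The ratio of 3′ to 5′ signal of ACTB, a measure of RNA integrity, was 0.703 and 0.709 on the replicate 1 arrays of 69CHAT and 82CHAT and 0.831 to 1.08 on the other arrays. The same ratio of GAPDH did not set these arrays apart, at 1.02 and 0.980 on them and 0.950 to 1.06 on the others. The part of RNA integrity in these values was not tested. The difference of the lines from WT was larger between replicate 1 arrays (median over the genes -0.54 in 69CHAT and -0.63 in 82CHAT) than in replicates 2 and 3 alone (-0.30 and -0.17).

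Falls also passed without the replicate 1 arrays. With replicates 2 and 3 alone 15 genes fell and 1 rose in 69CHAT, where 20.5% of all probe sets fell and 18.5% rose. In 82CHAT 14 fell and 2 rose, where 20.2% fell and 19.4% rose. With all 9 arrays and the replicate number as a block, 15 fell and 1 rose in 69CHAT (19.9% and 16.6% of all probe sets) and 14 fell and 1 rose in 82CHAT (20.3% and 17.9%). The block added PSMA1, PSMC2 and PSMD14 to the falls in both lines, took none away, and made PSMD12 the gene that rose. Removing WT replicate 3 left 6 falls in each line, where 12.8% and 12.9% of all probe sets fell. Removing WT replicate 2 left 7 in 82CHAT, where 13.2% of all probe sets fell. PSMA3, PSMB3, PSMC4, PSMD3, PSMD5 and PSMD8 passed in both lines whichever array was left out (highest adjusted p 0.047), and PSMB6, PSMB7, PSMD6, PSMD10 and PSMD11 did not pass in either line without WT replicate 3.

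**Figure D3:**
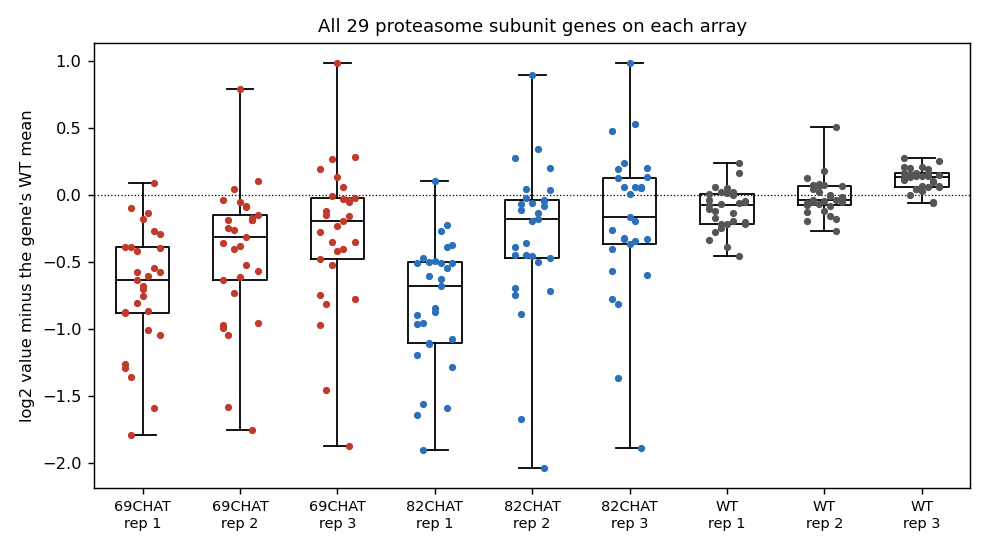
Log2 value of each of the 29 proteasome subunit genes minus its mean over the WT arrays (y axis) on each array of 69CHAT, 82CHAT and WT (x axis, points are genes, boxes give the median and quartiles, whiskers the full range). The medians are -0.63, -0.31 and -0.20 on the 69CHAT arrays of replicates 1, 2 and 3, -0.68, -0.18 and -0.17 on the 82CHAT arrays, and -0.08, -0.04 and 0.13 on the WT arrays.

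Other genes of the pathway were read from a list of 43, of which 33 were measured. In 69CHAT 2 rose and 10 fell, where 10.9% of all probe sets rose and 15.3% fell. In 82CHAT 3 rose and 13 fell, where 11% of all probe sets rose and 15.7% fell. Between the lines 0 passed. Genes that regulate the core moved in both directions. PSME1, a subunit of the interferon-inducible 11S activator, read 631, 636 and 644 in 69CHAT, 611, 664 and 758 in 82CHAT and 1464, 1286 and 1231 in WT, 2.08-fold lower in 69CHAT (adjusted p = 9.8e-05) and 1.96-fold lower in 82CHAT (adjusted p = 0.00016). PSMF1, an inhibitor of the 20S core, read 268, 350 and 362 in 69CHAT, 270, 402 and 461 in 82CHAT and 707, 996 and 1238 in WT, 2.95-fold and 2.59-fold lower (adjusted p = 0.0018 and 0.0036). Its dimmer probe set fell less, 1.41-fold and 1.46-fold.

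The nuclear activators went the other way. PSME4, known as PA200, was 1.53-fold higher in 82CHAT by its brightest probe set (adjusted p = 0.022) and 1.41-fold higher in 69CHAT (adjusted p = 0.054), and both of its dimmer probe sets rose in both lines (1.97-fold to 2.32-fold). PSME3, the PA28 gamma activator, was 1.44-fold higher in 82CHAT (adjusted p = 0.042) and 1.32-fold higher in 69CHAT (adjusted p = 0.11) by its brightest probe set. With the replicate block both genes also passed in 69CHAT (adjusted p = 0.038 for PSME4 and 0.018 for PSME3). The interferon-induced catalytic subunits PSMB8, PSMB9 and PSMB10 read 49.1 to 142 on all arrays and passed in neither line.

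Genes that feed and bind the proteasome mostly fell where they passed. UBA1, the main ubiquitin-activating enzyme, read 1454, 2534 and 2701 in 69CHAT, 1677, 2121 and 2203 in 82CHAT and 4680, 4923 and 4976 in WT, 2.26-fold lower in 69CHAT (adjusted p = 0.0041) and 2.45-fold lower in 82CHAT (adjusted p = 0.0025). UBE3C, a ubiquitin ligase that works on the proteasome, read 374, 537 and 545 in 69CHAT, 374, 494 and 455 in 82CHAT and 1101, 1131 and 1112 in WT, 2.33-fold and 2.54-fold lower (adjusted p = 0.00055 and 0.00031). UFD1, which works with the unfoldase VCP, was 2.31-fold and 1.82-fold lower (adjusted p = 0.00054 and 0.0034), and ADRM1, a ubiquitin receptor of the cap, 1.69-fold and 1.51-fold lower (adjusted p = 0.00081 and 0.0031). POMP, the maturation protein of the core, read 1382, 2585 and 2821 in 69CHAT, 1901, 2868 and 2750 in 82CHAT and 2291, 2657 and 2751 in WT and passed in neither line (-0.24 and -0.05, SE 0.27). Of the other core assembly genes measured, PSMG1 was 2.53-fold and 2.29-fold lower (adjusted p = 0.0076 and 0.013). PSMG2 passed in neither line.

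NFE2L1, the transcription factor of subunit genes, was higher in both lines. It read 2375, 2176 and 2280 in 69CHAT, 1673, 1939 and 1908 in 82CHAT and 1344, 1459 and 1398 in WT. All line arrays exceeded all WT arrays, and every 69CHAT array exceeded every 82CHAT array. NFE2L1 was 1.63-fold higher in 69CHAT (adjusted p = 0.00034) and 1.31-fold higher in 82CHAT (adjusted p = 0.0083), and its other 2 probe sets rose in both lines as well (1.25-fold to 1.58-fold). The difference between the lines was -0.31 (82CHAT minus 69CHAT, SE 0.08) and did not pass after adjustment. NFE2L2, a related factor that responds to oxidative stress, read 1112, 1138 and 1294 in 69CHAT, 796, 1208 and 1266 in 82CHAT and 737, 772 and 741 in WT. It rose in 69CHAT (1.57-fold, adjusted p = 0.018) and missed the threshold in 82CHAT (1.42-fold, adjusted p = 0.051; 0.023 with the replicate block), and all line arrays exceeded all WT arrays. RNA levels alone do not give the activity of NFE2L1, which is set by cleavage of the protein.

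**Figure D4:**
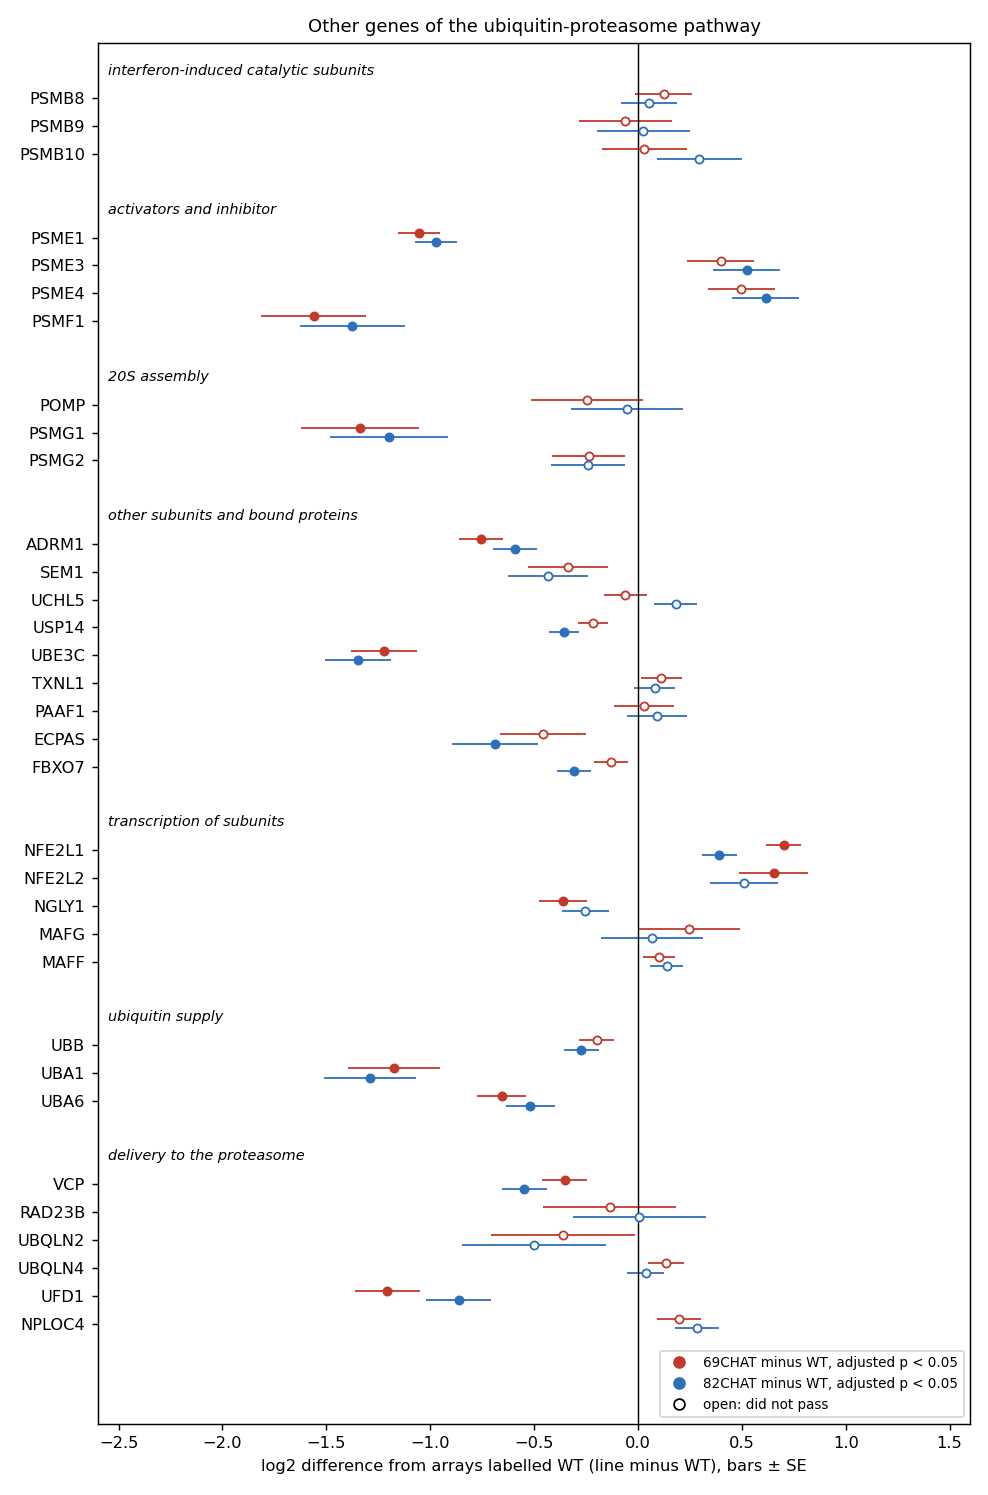
Log2 difference of the 69CHAT (red) and 82CHAT (blue) lines from the arrays labelled WT for the 33 measured genes of the pathway that are not among the 29 subunits, grouped by role (x axis, line minus WT, points with bars of ± SE, n = 3 arrays a group). Filled points passed an adjusted p of 0.05. NFE2L1, NFE2L2, PSME3 and PSME4 lie right of 0 in both lines, and PSME1, PSMF1, PSMG1, UBE3C, UBA1 and UFD1 lie farthest left.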

How the data were processed

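The authors deposited 1 linear-scale intensity per probe set and array, made with RMA per the submitters' processing notes. RMA includes background correction, quantile normalization and a summary over probes. The sources used here do not give its version or the step back to a linear scale. The table held 22283 probe sets. The 68 control probe sets were left out of the tests and 22215 were tested. Array medians were 141.4 to 142.7 on the replicate 1 arrays of the 3 groups and 133.7 to 136.6 on the other arrays. With no detection calls in the table, the 3 arrays a group limit the precision. Columns of other samples numbered 0 and no 2 arrays were identical.

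Groups and replicate numbers came from the sample titles. The members and lists were chosen with earlier results of these data known. The log2 intensities were analysed by limma 3.58.1 (R 4.3.3) (3 group means over all 9 arrays, 3 contrasts, eBayes), with Benjamini-Hochberg adjustment over all 22215 probe sets. The fit was run on simulated data with independent noise on each array. Such data cannot show how the fit handles deviations that arrays share. Arrays sharing a replicate number deviated together from their group means (r of 0.28 to 0.57 across probe sets, 9 of 9 pairs). The 18 pairs of arrays with different numbers ran from -0.59 to 0.48, so the ranges overlapped. The replicate number was also used as a block. No label ties a number to a day or batch, so the pairing rests on the titles and a correlation that some arrays with different numbers share.

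Named with full values were the catalytic subunits PSMB5, PSMB6 and PSMB7, the up to 8 subunit genes with the smallest adjusted p that passed in each contrast, the 2 with the largest difference among those that did not pass, up to 6 genes of the pathway list that passed, and NFE2L1 and POMP. PSMD6, PSMD11, PSMD1 and PSMA1, and VCP, PSMG1, PSMG2, PSME3, PSME4 and NFE2L2 of the pathway list, were named after their values were seen. Symbols were checked through Entrez identifiers in the RefSeq table. Promoter sequences are from RefSeq, GRCh38.p14, and only the 250 bases before the start were used.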

Additional observations from a re-analysis of the deposited data

How the results depend on the processing

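Alternatives were median centring, quantile normalization, pseudocounts of 1 and 16, a filter on dim probe sets, leaving out probe sets that can match several genes, the mean or the brightest probe set per gene, array quality weights, eBayes with a robust prior and an intensity trend, only the 6 arrays compared, the replicate block, replicates 2 and 3 alone, each array left out, and stricter thresholds. With each array left out in turn, the genes that fell numbered 6 to 13 in 69CHAT and 6 to 12 in 82CHAT, those that rose 0 and 0 to 1, and those that differed between the lines 0. The median log2 difference ran from -0.49 to -0.25 in 69CHAT, from -0.48 to -0.18 in 82CHAT and from -0.08 to 0.22 between the lines. At an adjusted p threshold of 0.01, 5 genes fell in each line, where 10.7% and 10.6% of all probe sets fell. Genes that rose numbered 1 in each line with the replicate block, and 1 in 69CHAT and 2 in 82CHAT in replicates 2 and 3 alone. Array quality weights gave 1 rise in 69CHAT and 2 in 82CHAT, where 26.6% and 30.4% of all probe sets rose, and 22 higher and 2 lower genes in 82CHAT against 69CHAT, where 40.9% and 33.3% of all probe sets passed, with PSMC2 at 0.089 in place of -0.20. limma stopped before those weights converged and gave 59.4 and 61.1 to replicate 2 of 69CHAT and 82CHAT, against at most 0.749 to any other array, so these counts rest on 1 array of each line. With the replicate block every subunit gene that fell still did. Among pathway genes not named above, USP14 and ECPAS in 69CHAT and UBQLN2 in 82CHAT also passed as lower. NPLOC4 passed as higher in 82CHAT. No alternative gave a call in the opposite direction for a subunit gene that fell.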
